A study of Mus musculus with 15 samples.

Results

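The 51 genes described here carry a cell through division: 16 act in S phase and DNA replication, 18 in mitosis, 10 are cyclins, cyclin-dependent kinases (CDKs) or the inhibitor Cdkn1b, and 7 are transcription factors that switch the others on or off. They were chosen by name from knowledge of the cell cycle, with earlier results of these data known. They were matched by Ensembl identifier to a table of 54418 genes. All 51 were found, and all 51 were among the 14925 genes that passed the filter on low counts. The roles follow textbook use, and the division into S phase and mitosis was not read from the data.

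RNA was sequenced from mouse colon cancer organoids, tumour cells grown in culture as small epithelial structures. Every library has the genotype that the labels give as AKP, and every line had been grown in C57Bl6 recipient mice with an intact immune system. Organoids were recovered from liver metastases of transplant rounds 1, 2 and 3 (Met1, Met2 and Met3) and from the primary colon tumours of rounds 2 and 3 (Primary2 and Primary3), with 3 libraries (rep 1 to 3) in each of the 5 groups. All groups therefore share the tumour genotype, a passage through a mouse and a return to culture, so the RNA is that of cultured cells and not of the tumour in place. The design text speaks of several organoid lines per round but does not say which replicates are separate lines or animals, so the p-values measure the spread between these samples only.

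As background, a dividing cell passes from G1 into S phase when D-type cyclins with Cdk4 or Cdk6, and then cyclin E with Cdk2, phosphorylate the retinoblastoma family and release E2F factors. E2F factors raise the genes that license and copy DNA. Later in the cycle Mybl2, Foxm1 and the MuvB core raise the genes of mitosis. In the gut epithelium these genes are high in the rapidly cycling crypt cells, and in colorectal tumours Wnt signalling and Myc are known to keep them high. In bulk RNA, fewer cycling cells and less RNA per cycling cell cannot be told apart.

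Total counts ran from 14122203 to 21306543 per library. The share of counts in a ribosomal RNA gene, a transcript without a poly(A) tail, was 6.24% to 7.52% in Met2 and 6.59% and 7.03% in Primary3 reps 2 and 3, against 2.01% to 4.09% in the other 10 libraries. Met2 rep 1 stood apart from its group: the chi-square per degree of freedom of its counts against the other Met2 libraries was 95.9 and 117, while other pairs of 1 group gave 11.6 to 55.9. Of 10 intestinal epithelial markers 9 passed the filter, and the list summed to 5546 to 15584 CPM (counts scaled to 1000000 per library), with the primary tumour libraries at 5789 to 8422. The fibroblast list (8 genes) summed to at most 5.16 CPM and the hepatocyte list (7 genes matched) to at most 5.96 CPM, the latter in Met1. The immune list (8 genes) reached 29.3 CPM and the endothelial list (5 genes) 46.3 CPM, nearly all of it Vwf in Met1 rep 2, where Kdr was at 0. CPM values here use library sizes scaled by edgeR's TMM factors. A gene was called where edgeR's quasi-likelihood test gave an adjusted p under 0.05 over all 14925 genes.

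The promoters of the S phase and the mitosis genes carried different motifs. RefSeq promoter windows (GRCm38.p6, 250 bases before to 50 after the start) were found for 40 of the 51 genes, in 42 windows. The 3 motifs searched, on both strands, were E2F-type sites (TTGGCGC and the variants TTCGCGC and TTCCCGC), the cell cycle homology region or CHR (TTTGAA), bound by MuvB, and the CCAAT box (CCAAT), bound by NF-Y. An E2F-type match lay in 9 of 15 S phase windows (60.0%) and in 2 of 15 mitosis windows (13.3%), against 8.07% of all 32851 promoter windows. The CHR had the reverse pattern, with 2 of 15 S phase windows (13.3%) and 11 of 15 mitosis windows (73.3%), against 17.9% of all. The CCAAT box was found in 66.7% and 93.3% of the S phase and mitosis windows and in 37.4% of all. The 250 bases before the start are printed for Mcm6, the S phase window with the most E2F-type matches, and for the called genes E2f2, Ccne1, Top2a and Bub1, 5′ to 3′ on the gene's strand. Capitals mark matches to any of the 3 motifs on either strand, so that ATTGG is a CCAAT box, TTCAAA a CHR and the run TTGGCGCGAA a pair of overlapping E2F-type matches.
Mcm6, chr1:128359706-128359955 (- strand): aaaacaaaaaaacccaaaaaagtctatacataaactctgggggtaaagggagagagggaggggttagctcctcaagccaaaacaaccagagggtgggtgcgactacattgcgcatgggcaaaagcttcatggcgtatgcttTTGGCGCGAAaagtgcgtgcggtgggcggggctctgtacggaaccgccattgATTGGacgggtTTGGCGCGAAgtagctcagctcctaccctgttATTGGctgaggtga
E2f2, chr4:136172024-136172273 (+ strand): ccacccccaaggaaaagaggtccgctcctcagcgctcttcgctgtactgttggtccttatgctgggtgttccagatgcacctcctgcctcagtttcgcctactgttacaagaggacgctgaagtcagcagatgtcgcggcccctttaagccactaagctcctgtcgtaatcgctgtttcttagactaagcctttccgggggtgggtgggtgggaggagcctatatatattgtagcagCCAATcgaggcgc
Ccne1, chr7:38107491-38107740 (- strand): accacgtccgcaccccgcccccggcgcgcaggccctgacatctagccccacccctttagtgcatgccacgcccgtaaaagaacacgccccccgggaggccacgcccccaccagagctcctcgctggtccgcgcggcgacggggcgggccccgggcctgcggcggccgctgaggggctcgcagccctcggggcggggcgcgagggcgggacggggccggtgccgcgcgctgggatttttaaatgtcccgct
Top2a, chr11:99024190-99024439 (- strand): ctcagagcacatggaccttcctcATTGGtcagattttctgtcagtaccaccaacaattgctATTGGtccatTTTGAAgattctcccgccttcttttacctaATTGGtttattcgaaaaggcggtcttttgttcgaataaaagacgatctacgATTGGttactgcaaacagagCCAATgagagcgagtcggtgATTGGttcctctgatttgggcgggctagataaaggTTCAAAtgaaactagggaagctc
Bub1, chr2:127831860-127832109 (- strand): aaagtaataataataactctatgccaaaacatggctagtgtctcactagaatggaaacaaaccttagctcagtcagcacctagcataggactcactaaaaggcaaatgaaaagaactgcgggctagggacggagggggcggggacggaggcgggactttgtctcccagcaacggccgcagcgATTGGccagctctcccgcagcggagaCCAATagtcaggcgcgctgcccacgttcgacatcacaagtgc
Mcm6 encodes a subunit of the MCM helicase and held 4 E2F-type and 2 CCAAT matches before its start. Top2a, the topoisomerase that untangles sister chromatids, held 2 CHR and 6 CCAAT matches, and Bub1, a kinase of the spindle checkpoint, held 2 CCAAT matches. The E2f2 stretch held 1 CCAAT match, with 1 E2F-type match after the start, a second E2f2 window held 1 CHR and 3 CCAAT matches, and the Ccne1 stretch held no match. Windows are not functional sites, and a window without a match says only that these letters are not in it.

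**Figure D1:**
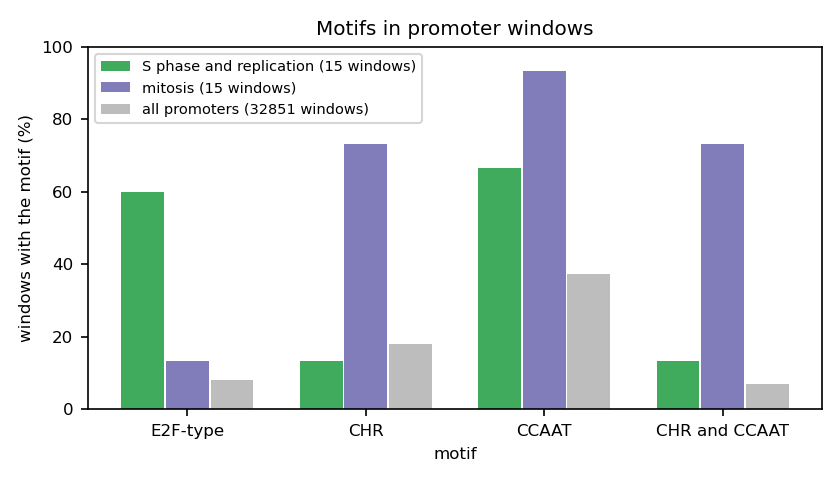
Share of promoter windows (percent, y axis) that hold each motif, or both CHR and CCAAT (x axis), for 15 S phase and replication windows, 15 mitosis windows and all 32851 windows. E2F-type matches are in 60.0% of the S phase windows and the CHR in 73.3% of the mitosis windows.

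Levels were compared between genes per kilobase of exon. Pcna, the sliding clamp of the DNA polymerases, had the highest mean at 222 CPM per kilobase, followed by Ccnd1 (cyclin D1) at 85.7 and Ube2c, which loads ubiquitin for the anaphase-promoting complex, at 74.7. The lowest means belonged to the E2F factors E2f7 at 1.33 and E2f2 at 2.47 CPM per kilobase. Between replicates of a group the 51 genes had a median standard deviation (SD) of 0.28 on the log2 scale, against 0.31 for all genes tested. Between group means their median SD was 0.22, against 0.33 for all. Ccnd2 (cyclin D2) had the largest SD between replicates, 1.22, and E2f2 the largest between groups, 0.97.

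**Figure D2:**
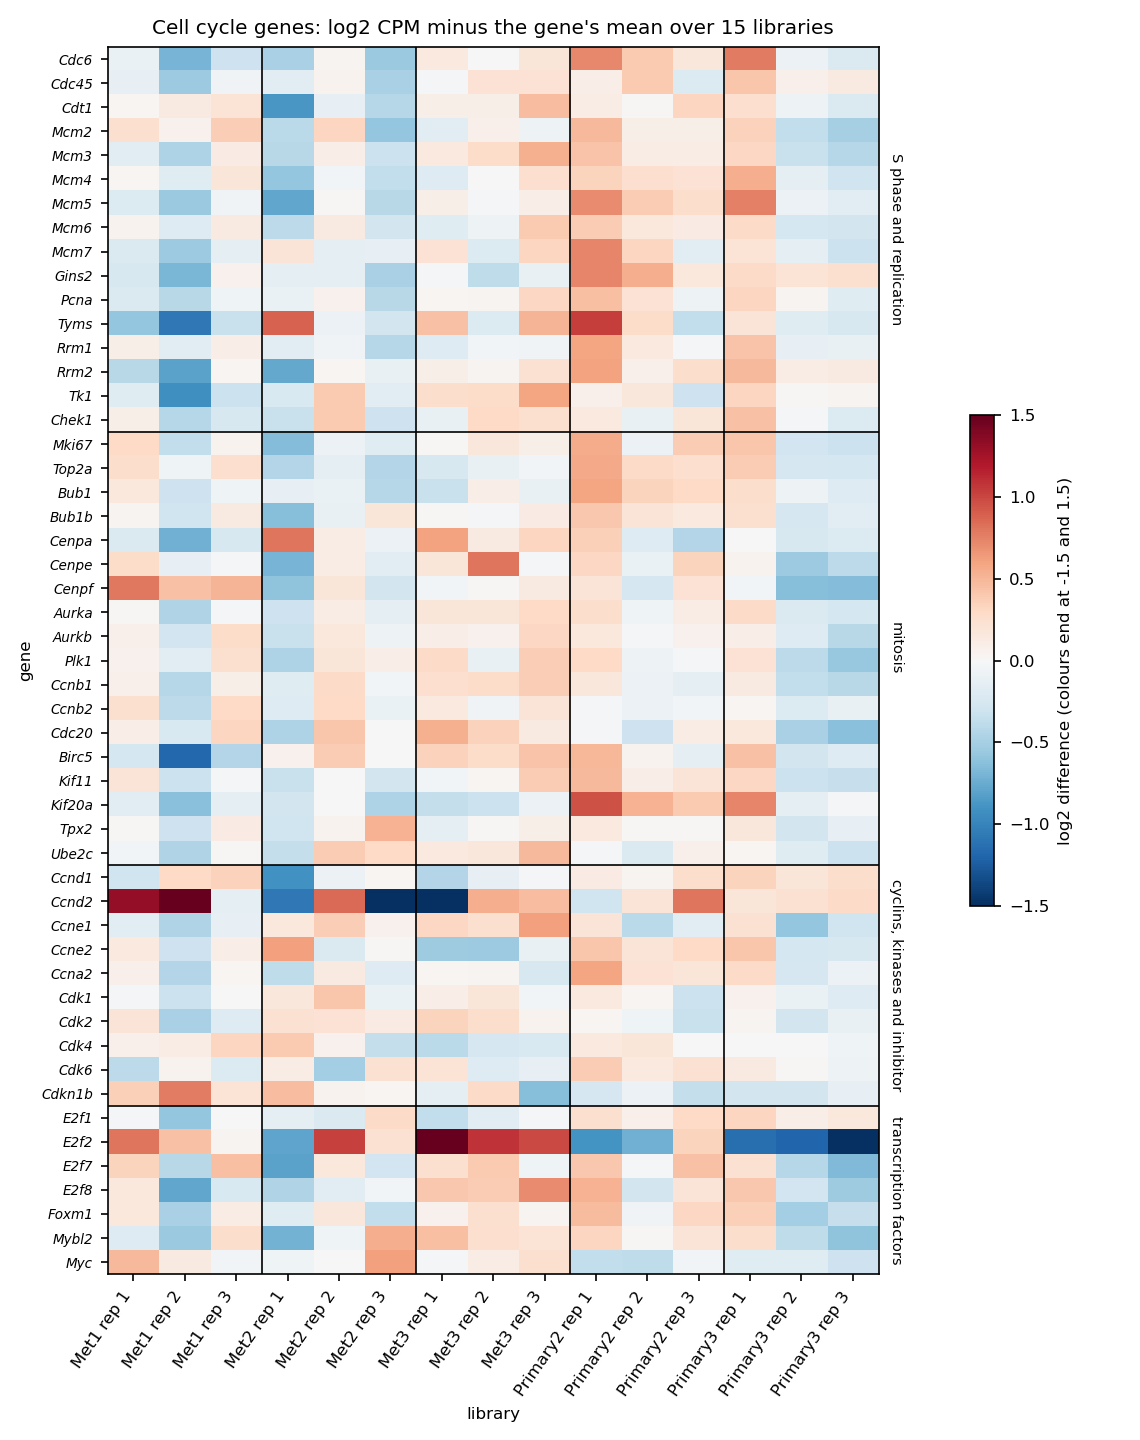
Each row is a gene and each column a library, and colour gives log2 CPM minus the gene's mean over 15 libraries (colours end at -1.5 and 1.5). Columns such as Met1 rep 2 and Primary3 rep 1 are pale blue or red over most S phase and mitosis rows, while E2f2 and Ccnd2 show the strongest colours.

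The S phase and mitosis genes moved together between replicates of the same group. In Primary3, rep 1 had the highest level of 48 of the 51 genes (94.1%), among them all 16 S phase and all 18 mitosis genes, while the same library was highest for 37.3% of all genes tested. In Met1, rep 2 had the lowest level of 43 of 51 (84.3%), including 15 of 16 S phase and 18 of 18 mitosis genes, against 36.9% of all genes. Met2 rep 2 was the highest of its group in 36, Primary2 rep 1 in 35 and Met3 rep 3 in 32 of the 51. Over all genes they were highest in 28.2%, 34.6% and 35.5%. Of the 10 cyclins, kinases and the inhibitor, Primary3 rep 1 was highest in 8 and Primary2 rep 1 in 6. Met1 rep 2 was lowest in 5 (36.9% of all genes) and highest in 3 (34.0% of all genes).

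The size of these shifts was read from the mean log2 CPM of a role group, taken relative to its mean over all libraries. For S phase genes Primary3 rep 1 stood at 0.40 and reps 2 and 3 at -0.09 and -0.16. For mitosis genes the same libraries stood at 0.22, -0.30 and -0.31. In Met1 the S phase values were -0.12, -0.47 and -0.02, and the mitosis values 0.11, -0.35 and 0.07. The ribosomal RNA share in Primary3 was 3.53% in rep 1 against 6.59% and 7.03%, and Vwf stood at 16.1, 46.1 and 2.10 CPM in Met1 reps 1, 2 and 3. The part of either in these shifts was not tested.

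Group means of S phase genes were 0.25 ± 0.22 in Primary2 (SD, n = 3), 0.11 ± 0.13 in Met3, 0.05 ± 0.30 in Primary3, -0.20 ± 0.23 in Met2 and -0.20 ± 0.23 in Met1. The mitosis means ran from -0.13 ± 0.30 in Primary3 to 0.14 ± 0.17 in Primary2. For mitosis genes the ranges of libraries overlapped between all pairs of groups. For S phase genes they overlapped for all pairs but Met1 with Met3 and Met1 with Primary2, where Met1 was lower. The transcription factors were tightest in Met3, at 0.30 to 0.34 in all 3 libraries, and lowest in Primary3 (-0.32 ± 0.32).

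**Figure D3:**
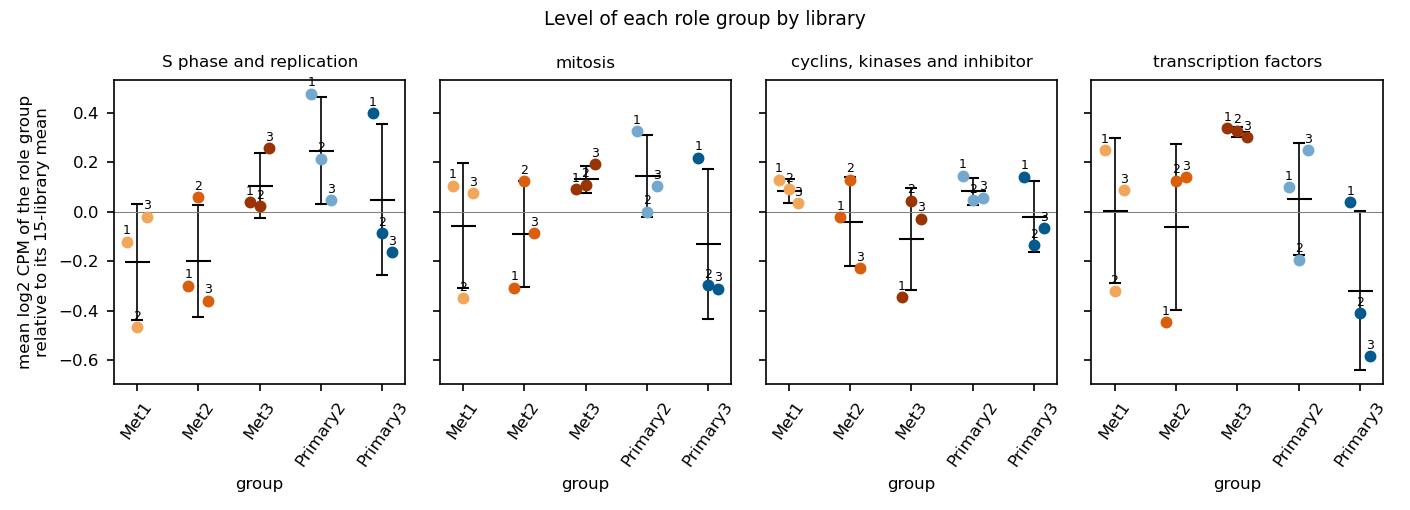
Mean log2 CPM of the genes of each role in each library, relative to the mean over 15 libraries (y axis), by group (x axis), with replicate numbers beside the points and the mean and SD of 3 as line and bar. In S phase and mitosis Primary3 rep 1 lies above and Met1 rep 2 below the other libraries of its group.

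The first comparison asked whether organoids from liver metastases differ from those of primary tumours of the same rounds, with Met2 and Met3 (6 libraries) against Primary2 and Primary3 (6 libraries). E2f2, an activating E2F factor, was 3.12-fold higher in metastasis organoids. Ccne1 (cyclin E1) and Myc rose by less, while Kif20a, a kinesin of cytokinesis, Gins2, a subunit of the replicative helicase complex, Top2a and Bub1 fell. In all 7 of 51 genes were called (13.7%), 3 higher and 4 lower, where 30.4% of all genes tested were called (14.3% higher and 16.1% lower). The median log2 change of the 51 was -0.07 and that of all genes 0.01. With library sizes taken as total counts 9 were called, 1 higher and 8 lower, and of all genes 1610 were called higher and 2938 lower, with the median of all genes at -0.07. For 48 of the 51 the 95% interval of the log2 change lay within -1 and 1. The exceptions were E2f2, Kif20a and Ccnd2.

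E2f2 lies at chr4:136172394-136196057 (GENCODE M21, GRCm38). Its level was 5.56, 19.9 and 11.4 CPM in Met2, 29.3, 20.7 and 19.4 in Met3, 5.16, 5.84 and 12.2 in Primary2 and 4.38, 4.18 and 2.71 in Primary3. Met3 was above every primary library, while Met2 reps 1 and 3 lay within the Primary2 range. Its counts per library ran from 46 to 544. The fitted log2 change was 1.64 ± 0.31 (standard error, SE; 95% interval 0.97 to 2.32), with an edgeR adjusted p of 0.00223. The call was kept under all 22 alternatives, where the adjusted p ran from 2.84e-06 to 0.00789. Met1 organoids held 17.0, 13.1 and 10.0 CPM.

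Among the other activating E2F factors, E2f1 had a log2 change of -0.30 ± 0.13 (SE), with an adjusted p of 0.0917. E2f3, outside the 51, was not called and stood at 15.3 to 25.8 CPM in Met2 and Met3 and 12.5 to 18.6 in the primary libraries, which overlapped. The atypical repressors E2f7 and E2f8 had log2 changes of -0.06 and 0.10. The mitotic activators Foxm1 and Mybl2 had -0.07 and 0.16. Of the 7 transcription factors, E2f2 and Myc were called.

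Myc, which encodes a growth-promoting transcription factor and lies at chr15:61985391-61990374, stood at 77.9, 80.8 and 125 CPM in Met2, 80.1, 87.8 and 96.0 in Met3, 63.2, 62.2 and 79.1 in Primary2 and 71.6, 72.0 and 65.6 in Primary3. Met2 rep 1 at 77.9 was the only metastasis library of rounds 2 and 3 below Primary2 rep 3. The log2 change was 0.40 ± 0.13 (SE), with an adjusted p of 0.0359. Ccne1, at chr7:38097984-38107534, stood at 23.3, 27.0 and 21.8 CPM in Met2, 25.8, 24.6 and 32.0 in Met3, 23.8, 15.7 and 18.4 in Primary2 and 24.5, 13.9 and 16.8 in Primary3. Rep 1 of both primary groups lay within the metastasis range. The log2 change was 0.45 ± 0.15 (SE), with an adjusted p of 0.0422.

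Among the genes that fell, Gins2 (chr8:120578633-120589304) was the called gene whose libraries did not overlap. It stood at 35.2, 35.2 and 27.7 CPM in Met2 and 37.9, 29.9 and 36.1 in Met3, against 64.5, 56.8 and 43.3 in Primary2 and 47.3, 44.8 and 45.9 in Primary3. The log2 change was -0.58 ± 0.14 (SE), with an adjusted p of 0.00691 (0.000964 to 0.0227 over the alternatives). Non-overlap was found for 3 of the 51 genes (Gins2, Ccnd1 and Cdk2) and for 12.2% of all genes.

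Kif20a, on chromosome 18, stood at 108, 130.5 and 94.7 CPM in Met2 and 102, 104 and 123 in Met3, against 253, 188 and 172 in Primary2 and 216, 119 and 129 in Primary3. The primary groups were higher, although Primary3 reps 2 and 3 fell inside the metastasis range. The log2 change was -0.69 ± 0.16 (SE), with an adjusted p of 0.00751 (0.000821 to 0.0284 over the alternatives). Top2a (chr11:98992943-99024189) stood at 289, 356 and 289 CPM in Met2, 332, 363 and 379.9 in Met3, 581, 479 and 468 in Primary2, and 510.0, 328 and 327 in Primary3. Its log2 change was -0.41 ± 0.12 (SE), with an adjusted p of 0.0233. Bub1 (chr2:127801122-127831865) stood at 59.3, 60.3 and 48.0 CPM in Met2, 51.2, 69.5 and 59.9 in Met3, 97.5, 81.6 and 79.7 in Primary2, and 77.6, 61.4 and 56.4 in Primary3. Its log2 change was -0.37 ± 0.12 (SE), with an adjusted p of 0.0327. For both genes Primary2 lay above all metastasis libraries and Primary3 overlapped them.

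**Figure D4:**
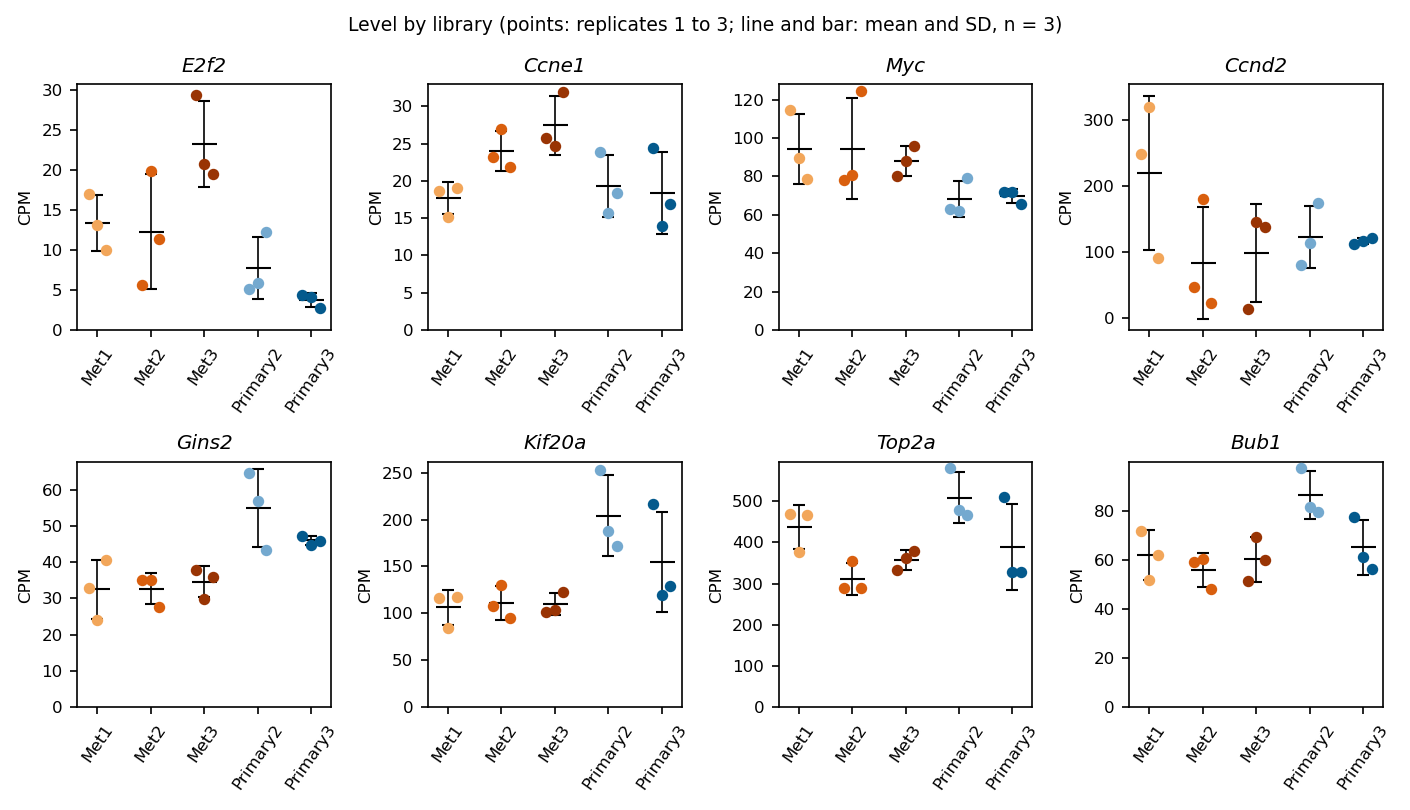
CPM (y axis) of 8 genes in each library, by group (x axis); points are replicates, line and bar the mean and SD of 3. E2f2 is highest in Met3, Gins2 is higher in every primary library than in Met2 and Met3, and Ccnd2 spreads from 13.1 to 320.0 CPM.

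The weaker calls were lost in fits that left out 1 of several different libraries. Without Met3 rep 1, 4 of the 51 were called (3656 of all genes), and without Met2 rep 1, 10 (5265 of all genes). These were also the lowest and highest all-gene counts without 1 library. Gins2, Kif20a and E2f2 kept their calls in every alternative run. Top2a lost its call without Met2 rep 3 (adjusted p 0.0759), Met3 rep 1 (0.0848) or Primary2 rep 1 (0.0555), and its adjusted p ran from 0.0119 to 0.0848. Bub1 lost its call in 7 of 22 alternatives, 6 of them without Met2 rep 2 (0.0590) or rep 3 (0.114), Met3 rep 1 (0.130) or rep 3 (0.0561), Primary2 rep 1 (0.0744) or Primary3 rep 1 (0.0835). Myc lost its call in 11 alternatives (adjusted p 0.0164 to 0.103), among them the fits without Met2 rep 3 (0.0567), Met3 rep 2 or 3 (0.0611 and 0.0725), Primary2 rep 1 or 2 (0.0732 and 0.0806) and Primary3 rep 1, 2 or 3 (0.0597, 0.0604 and 0.0793). Ccne1 lost its call in 12 (0.00959 to 0.131), among them the fits without Met1 rep 1 or 3, Met2 rep 2, Met3 rep 1 or 3, Primary2 rep 2 or 3 and Primary3 rep 2 or 3. Met1 is not part of this comparison. Without Met1 rep 1 or 3 the log2 change of Ccne1 stayed at 0.45, with adjusted p-values of 0.0535 and 0.0531.

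Gins2 and Kif20a lie on the chromosomes with the lowest median changes in this comparison. The median log2 change was -0.41 over 389 genes of chromosome 18 and -0.30 over 789 genes of chromosome 8, where 181 and 298 genes were called lower. Within 5 Mb of Kif20a the 101 tested neighbours had a median of -0.47, and within 5 Mb of Gins2 the 102 neighbours had -0.25. The neighbours of E2f2, Myc, Ccne1, Top2a and Bub1 had medians of 0.07, 0.09, -0.10, -0.10 and -0.16. Of the 157 cell cycle genes listed here (the 51 and 106 others described below), 10 lie on chromosome 8 and 2 on chromosome 18, and 8 of these 12 were called lower. The other 145 held 8 lower and 12 higher calls. This grouping by chromosome was chosen after the values were seen, and its part in the result was not tested.

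Gins2 shares 2758 exon bases with Gse1 and Kif20a shares 1271 with Cdc23, both on the opposite strand, and the strand setting of the counting is not given in the sources used here. Gse1 had a log2 change of -0.06 ± 0.21 (SE) and Cdc23, a subunit of the anaphase-promoting complex, one of -0.69 ± 0.10 (SE; adjusted p 0.000507). The share of Kif20a and Cdc23 counts that could come from the partner was not tested.

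Mki67 and Pcna, a pair of proliferation markers, were not called, whereas Top2a, also used as one, was called lower. Mki67, the antigen Ki-67, stood at 200.1, 297 and 278 CPM in Met2, 319, 355 and 334 in Met3, 462, 296 and 411 in Primary2 and 421, 257 and 251 in Primary3. Its log2 change was -0.24 ± 0.17 (SE; 95% interval -0.60 to 0.13), with an adjusted p of 0.312. Pcna ranged from 394 to 650.2 CPM in the metastasis libraries and from 464 to 716 in the primary ones, a log2 change of -0.15 (-0.41 to 0.12; adjusted p 0.387). Intervals of this width do not show that the levels were equal.

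In G1 control, Ccnd1 was lower in all 6 metastasis libraries (210.1 to 402 CPM) than in all 6 primary ones (404 to 498 CPM). Its log2 change of -0.43 ± 0.16 (SE) had an adjusted p of 0.0578 (0.0185 to 0.165 over the alternatives) and was not called. Cdk2, the partner of cyclin E, was higher without overlap (60.6 to 73.6 against 46.3 to 60.2 CPM), with a log2 change of 0.32 ± 0.11 (SE) and an adjusted p of 0.0511, and it was called in 10 of 22 alternatives. Cdk6 had a log2 change of -0.17 (-0.45 to 0.11) and the inhibitor Cdkn1b, p27, one of 0.27 (-0.06 to 0.60). Ccnd2 stood at 47.4, 180.2 and 22.7 CPM in Met2, 13.1, 146 and 137 in Met3, 81.2, 114 and 174 in Primary2, 113, 116 and 122 in Primary3 and 249.7, 320.0 and 90.6 in Met1. Single metastasis libraries were both the highest and the lowest, and the log2 change of -0.40 had an interval from -1.62 to 0.81.

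**Figure D5:**
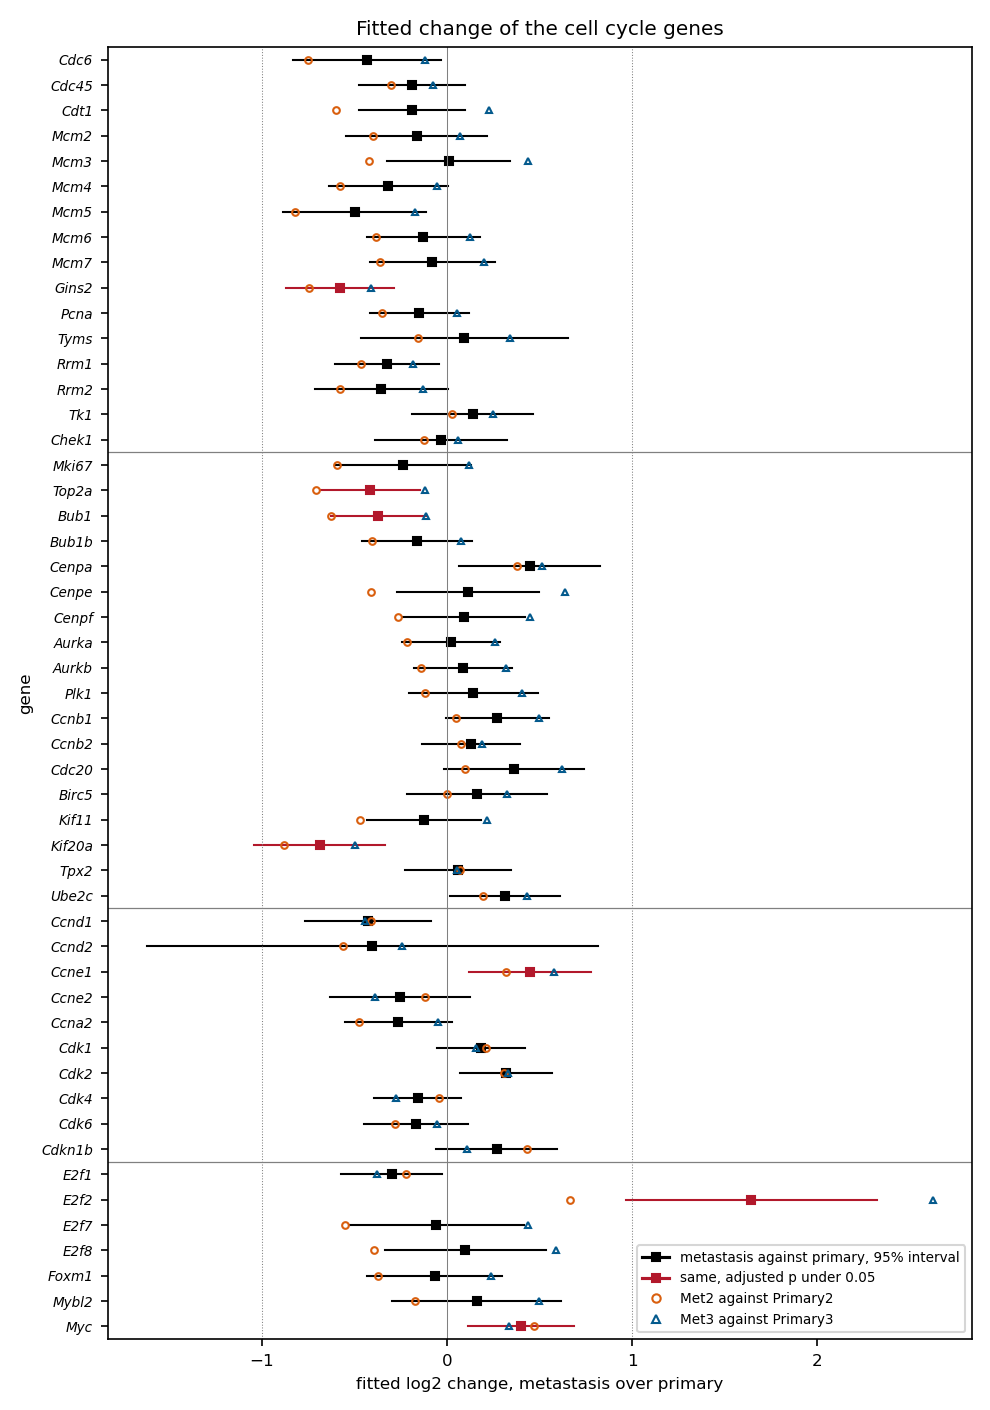
Fitted log2 change (x axis) of each gene (y axis): squares and lines give metastasis against primary with the 95% interval, red where the adjusted p is under 0.05, circles Met2 against Primary2 and triangles Met3 against Primary3. Most S phase and mitosis circles lie left of their triangles, and E2f2 lies furthest right.

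Within round 2, 1 S phase gene and 3 mitosis genes were called, all lower in metastasis organoids. Top2a fell by 0.71 (SE 0.17; adjusted p 0.0230), Gins2 by 0.75 (SE 0.19; 0.0273), Kif20a by 0.88 (SE 0.23; 0.0302) and Bub1 by 0.63 (SE 0.17; 0.0323) on the log2 scale. These 4 of 51 calls (7.84%) stand beside 11.8% of all genes (5.5% higher and 6.35% lower). The median of the 51 was -0.30 against 0.02 for all genes, and 38 had a fitted change below 0, as had 7223 of all 14925. Of the 51, 16 did not overlap between the groups (14 lower), where 29.6% of all genes did not overlap (16.9% lower). The S phase median was -0.41. Mcm5, a helicase subunit, and Cdt1, which loads the helicase, had changes of -0.82 and -0.60 with adjusted p-values of 0.0524 and 0.0556, and Mki67 had -0.59 (adjusted p 0.123). E2f2 had 0.66 (95% interval -0.27 to 1.60).

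The ribosomal RNA share was 6.24% to 7.52% in Met2 and 3.74% to 3.83% in Primary2. With that share as a covariate, an alternative added after its values were seen, 0 of the 51 were called and their median was 0.07. That fit called 112 of all genes. The shares of Met2 and Primary2 did not overlap. In Primary3 the library with the lowest share also had the highest level of most of the 51 genes. The covariate fits here and below therefore cannot tell the share apart from group or cell cycle level. A fit of the 6 libraries of Met2 and Primary2 alone called 0 of the 51 and 215 of all genes. DESeq2 called 7 of the 51 and 2765 of all genes, where the main fit called 1768 of all. Without Met2 rep 3 or Primary2 rep 1, 0 of the 51 were called, without Primary2 rep 2, 1, and without Primary3 rep 1, 7. Calls over all genes also moved, from 715 without Primary2 rep 3 to 2150 without Met2 rep 1. Gins2 lost its call in 6 alternatives, Top2a in 4, Bub1 in 7 and Kif20a in 6. With the covariate the log2 changes of Gins2, Top2a, Bub1 and Kif20a were -0.63, -0.23, -0.23 and -0.25, with adjusted p-values of 0.330, 0.605, 0.646 and 0.688. In the fit of these 6 libraries alone they were -0.71, -0.67, -0.59 and -0.84, with adjusted p-values of 0.113, 0.0852, 0.107 and 0.0970.

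Within round 3 the call was E2f2, higher in Met3 than in Primary3 by 2.62 ± 0.46 (SE) on the log2 scale, 6.16-fold, with an adjusted p of 0.00320 (2.6e-07 to 0.0339 over the alternatives). It made up 1 of 51 genes (1.96%), where 19.1% of all genes were called (8.12% higher and 11% lower). The median of the 51 was 0.16 and that of all genes 0.00. The libraries of 11 genes did not overlap, against 44.4% of all genes. Ccne1 had a change of 0.58 (adjusted p 0.0783), Ccnb1 (cyclin B1) 0.50 (0.0721) and Cdc20, an activator of the anaphase-promoting complex, 0.62 (0.0946). Of the genes called in round 2, Gins2 and Kif20a had changes of -0.41 and -0.50, and Top2a and Bub1 of -0.11 each. Without Primary3 rep 1, 5 genes were called: E2f2, Mcm3, Ccnb1, Cdc20 and Ccne1, all higher.

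The metastasis effect of round 3 minus that of round 2 was tested directly. No gene of the 51 was called by edgeR (0% of all genes; 9 of 51 had an unadjusted p under 0.05, against 12.2% of all genes) or by DESeq2, which called 198 of all genes. The median difference of the 51 was 0.45, against -0.01 for all genes. A difference above 0 was found for all 16 S phase and 17 of 18 mitosis genes. It was also found for 5 of 10 cyclins, kinases and the inhibitor, and 5 of 7 transcription factors. Over all 14925 genes it was found for 7332. The S phase and mitosis genes moved together between replicates, so these counts are not of independent genes. With the ribosomal RNA share as a covariate the median was -0.21, under the same limit of that fit. The difference for E2f2 was 1.96 (95% interval 0.62 to 3.30; adjusted p 0.284).

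Across rounds of metastasis, 5 of 51 genes (9.80%) were called between Met3 and Met1, where 23.4% of all genes were called (11.6% higher and 11.8% lower). Birc5 (survivin, of the chromosomal passenger complex) rose by 0.93 ± 0.25 (SE; adjusted p 0.0186), from 118, 62.5 and 104 CPM in Met1 to 180.0, 172 and 191 in Met3. Tk1, the thymidine kinase of S phase, rose by 0.82 ± 0.22 (SE; 0.0168), from 141, 85.0 and 129 to 193, 194 and 241 CPM. The libraries of both genes were separate between the groups. Both lie close together, Tk1 at chr11:117815526-117826092 and Birc5 at chr11:117849251-117855743. Cenpa, the histone of centromeres, rose by 0.75 ± 0.25 (SE; 0.0469), from 135, 95.2 and 132 to 239.6, 172 and 197 CPM, and Ccne1 by 0.64 ± 0.22 (SE; 0.0495), from 18.7, 15.2 and 19.1 to 25.8, 24.6 and 32.0 CPM. Cdk4, the partner of D-type cyclins, fell by 0.47 (SE 0.15; 0.0424), from 244, 249.8 and 288 to 174, 194 and 196 CPM. With total counts as library sizes 2 were called higher and 2 lower, and of all genes 1231 higher and 2357 lower.

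The median of the 51 was 0.15 and that of all genes 0.01, and 18 genes did not overlap (16 higher), against 44.5% of all genes (22.4% higher). Met1 rep 2 had the lowest level of Birc5, Tk1, Cenpa and Ccne1 in its group. Without it, or without Met3 rep 3, 0 of the 51 were called. Without Met1 rep 3, Met2 rep 2, Met3 rep 1, Primary2 rep 2 or Primary3 rep 3, 2 were called, and without Met3 rep 2 or Primary3 rep 1 or 2, 3. Calls over all genes also moved, from 3499 with all libraries to 1988 without Met1 rep 2 and 4449 without Met2 rep 1. These were the lowest and highest all-gene counts without 1 library. Tk1 (adjusted p 0.00303 to 0.0686) and Birc5 (0.00323 to 0.0690) lost their calls in 2 of 22 alternatives each, Cenpa and Ccne1 in 13 and Cdk4 in 15. Within 5 Mb of Cdk4 the 85 neighbours had a median of -0.29, and Tspan31, which shares 641 exon bases with Cdk4 on the opposite strand, had a change of -0.46 (SE 0.14; adjusted p 0.0297). Chromosome 5, where Cenpa lies, had the highest chromosome median, 0.25, with 154 genes called higher and 39 lower. Chromosome 11, where Birc5 and Tk1 lie, had 0.05. The part of position in these changes was not tested. Cdkn1b had -0.58 (adjusted p 0.0666), and Ccnd2 -1.16 with an interval from -2.89 to 0.58.

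Between Met2 and Met1 the call was Cenpf, a kinetochore and nuclear matrix protein, which fell by 0.78 (log2; SE 0.22; adjusted p 0.0298, 0.00712 to 0.834 over the alternatives). It stood at 126, 98.2 and 103 CPM in Met1 and 47.7, 82.4 and 59.9 in Met2, without overlap. It was 1 of 51 (1.96%), where 16.3% of all genes were called (8.7% higher and 7.57% lower). The libraries of 8 of the 51 genes did not overlap, against 32.7% of all genes. Cenpf was not called without Met1 rep 1, 2 or 3 (0.0891, 0.0680 and 0.0550) or Met2 rep 1 or 3 (0.0734 and 0.0801). With the ribosomal RNA share, 2.01% to 3.73% in Met1, as a covariate its change was -0.13.

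Between Met3 and Met2 edgeR called 0 of 51 genes (0.275% of all), with 6 of 51 at an unadjusted p under 0.05 (14.5% of all), and DESeq2 called 1, Cdt1 (log2 change 0.67, adjusted p 0.0398). Between Primary3 and Primary2 edgeR called 0 of 51 and 0% of all genes, with 4 of the 51 at an unadjusted p under 0.05 (7.12% of all), and DESeq2 called 0. In the latter 44 of 51 genes had a fitted change below 0 (7729 of all 14925), with a median of -0.21 against -0.01 for all genes. The ribosomal RNA share was higher in Primary3 reps 2 and 3, and with it as a covariate the median was 0.00. Primary3 rep 1 was also the highest of its group in 48 of the 51 genes. This fit therefore cannot tell the share from the cell cycle level. All comparisons draw on the same 15 libraries, and those of 1 round share libraries with the pooled comparison.

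The 106 other cell cycle genes, listed by role beside the 51, were all tested. Between metastasis and primary organoids Gins3, Gins4, Prim2, Cks2, Ect2, Spc24, Cdkn1a, Cdkn1c and Rbl2 kept their calls in all 22 alternatives. Among 36 other replication genes 5 were called between metastasis and primary organoids, 2 higher and 3 lower (13.9%, against 30.4% of all genes; median -0.12). Gins4 and Gins3, partners of Gins2 in the GINS complex, fell by 0.51 (SE 0.10; adjusted p 0.00276) and 0.61 (SE 0.15; 0.00849), and both lie on chromosome 8. Prim2, a primase subunit, rose by 0.89 (SE 0.21; 0.00695). In the GINS complex every library of Met2 and Met3 was below every primary library for Gins2, Gins3 and Gins4. Of all 14925 genes 12.2% did not overlap in either direction, and 1147 were lower without overlap. Gins2, Gins3 and Gins4 all lie on chromosome 8, where 298 of 789 genes were called lower. The part of position in this pattern was not tested. Gins1, the remaining subunit, is not among the 10 cell cycle genes of chromosome 8. It overlapped, at 15.9 to 32.0 CPM in Met2 and Met3 and 26.3 to 41.8 in the primary libraries. Between Met3 and Met1, 6 of the 36 replication genes were called, all higher (16.7%, against 23.4% of all genes and 11.6% called higher), led by Prim2 at 1.68 (SE 0.30; adjusted p 0.00323).

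Among 44 other mitosis genes, 4 were called higher and 3 lower in metastasis organoids (15.9% called, against 30.4% of all genes; median -0.10). Cks2, a small adaptor of CDKs, stood at 119 to 202 CPM in Met2 and Met3 and 72.6 to 99.0 in the primary libraries, an increase of 0.97 (SE 0.12; adjusted p 0.000142). Ect2, which starts the cytokinetic furrow, fell by 0.78 (SE 0.13; 0.000975), and Spc24 of the kinetochore rose by 0.74 (SE 0.17; 0.00572). Cks2 was also called higher in Met2 against Primary2 (0.81), Met3 against Primary3 (1.12) and Met3 against Met1 (0.80). The call of round 2 was lost with those 6 libraries alone (adjusted p 0.0924).

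The brakes of the cycle were 11 genes, CDK inhibitors and pocket proteins with the kinases Wee1 and Pkmyt1. Of these, 6 were called (54.5%, against 30.4% of all genes), 3 higher and 3 lower (median -0.08). Cdkn1a, p21, rose by 1.22 (SE 0.30; adjusted p 0.00861), from 22.8 to 66.6 CPM in the primary libraries to 58.9 to 130.0 in Met2 and Met3. Cdkn1c, p57, rose by 0.65 (SE 0.16; 0.0103), and Rbl2, the pocket protein p130, fell by 0.48 (SE 0.11; 0.00637). Within round 3 Cdkn2a, which encodes p16 and p19Arf, fell by 1.73 (SE 0.30; 0.00296), from 424, 554 and 550.1 CPM in Primary3 to 174, 103 and 182 in Met3. In round 2 Cdkn2a was not called. It stood at 549, 229 and 290 CPM in Met2 and 262, 302 and 343 in Primary2, which overlapped. A list of 15 other genes held E2F and DREAM factors together with Ccnd3, Cdc25a, Skp2 and Fbxw7 (median -0.12). Of these 15, 3 were called, all lower (20%, against 30.4% of all genes and 16.1% called lower). Skp2, which targets p27 for degradation, fell by 0.54 (SE 0.14; 0.0121) and kept its call in all 22 alternatives. The others were the E2F partners Tfdp1, which fell by 0.36 (SE 0.10; 0.0199) and was not called without Met3 rep 1 (0.0817), and Tfdp2, which fell by 0.51 (SE 0.16; 0.0290). Tfdp2 was not called in 10 alternatives (adjusted p up to 0.0792), among them the fits without Met2 rep 2, any Met3 library, Primary2 rep 1 or 3 or Primary3 rep 1 or 3. Between Met3 and Met1 Tfdp2 fell by 1.52 (SE 0.23; 0.00202) and the phosphatase Cdc25a by 0.84 (SE 0.16; 0.00370).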

How the data were processed

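Salmon 1.3.0 and the build mm10 are named in the submitters' processing notes. The table that the authors deposited holds estimated counts per Ensembl gene, all whole numbers. For the summing of transcripts, annotation release, strand setting and rounding, the sources used here give nothing. The values were rounded to whole numbers before testing, which changed none. Per the labels, RNA was poly(A)-selected and libraries were directional. Each of the 15 columns matched 1 sample's library name, with 0 columns of no sample. Symbols and positions came from GENCODE M21, and promoter windows from a RefSeq table.

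edgeR 4.0.16 under R 4.3.3 (TMM factors, filterByExpr, quasi-likelihood F test, all 15 libraries in 1 fit of group means) tested 14925 of 54418 genes in 8 comparisons, with Benjamini-Hochberg adjustment over all genes tested and a threshold of 0.05. SEs were computed as log2 change over the root of F. CPM for log2 values used a prior count of 2. The procedure was tested on simulated counts in which each gene was drawn independently. The shifts shared by many genes between replicates were not simulated. Depth was 14122203 to 21306543 counts, and the lowest count of any of the 51 genes was 46. The 3 libraries in each group limit precision.

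Members and lists were chosen with earlier results of these data known. Named are the members called in each comparison (in every library for up to 4 per role of smallest p), Mki67, Pcna, Ccnd1, Ccnd2, Cdk6, Cdkn1b and Myc, and up to 3 genes of smallest p from each other list. Members not called that are given with values beside these were chosen after their values were seen. E2f3 and Gins1, from the other lists, are also given outside this rule. Alternatives were DESeq2-type size factors, total counts, no filter, DESeq2 1.42.0, only the groups compared, a replicate block, leaving out each library, and, added after seeing the data, the ribosomal RNA share as a covariate.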

Additional observations from a re-analysis of the deposited data

How the results depend on the processing

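Each count of called genes among the 51 was recomputed under 22 alternatives. In metastasis against primary, 7 were called (4537 of all genes), 11 with DESeq2 (5298) and 4 to 10 without 1 library (3656 to 5265). In Met2 against Primary2, 4 were called (1768 of all genes), 7 with DESeq2 (2765) and 0 with only the groups compared (215). The ribosomal RNA covariate gave 0 (112) and leaving out 1 library 0 to 7 (715 to 2150). In Met3 against Primary3, 1 was called (2850 of all genes), 3 with DESeq2 (3784) and 2 with only the groups compared (3439). The covariate gave 2 (1540) and leaving out 1 library 1 to 5 (1372 to 3668). In Met2 against Met1, 1 was called (2428), 3 with total counts (2670), 5 with DESeq2 (3374) and 0 with only the groups compared (14). The covariate gave 0 (20) and leaving out 1 library 0 to 3 (573 to 2527). In Met3 against Met1, 5 were called (3499), 2 without a filter (3044) and 9 with the covariate (3446). Leaving out 1 library gave 0 to 7 (1988 to 4449). In Met3 against Met2, 0 were called (41), 1 with DESeq2 (570) and 0 to 0 without 1 library (0 to 203). The difference between rounds and Primary3 against Primary2 gave 0 under all 22. The cause of these changes was not tested. Among the named genes no called change turned sign. In Met3 against Primary3 the uncalled changes of Top2a (-0.23 to 0.13 without 1 library, 0.13 without Primary3 rep 1) and Bub1 (-0.23 to 0.03, above 0 without Met3 rep 1 at 0.028 and Primary3 rep 1 at 0.034) did.

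With the replicate number as a block, the counts were 10 in metastasis against primary, 4 in Met2 against Primary2, 1 in Met3 against Primary3, 3 in Met2 against Met1 and 7 in Met3 against Met1, and 0 in the other 3. The all-gene counts with the block were, in the same order, 4490, 1627, 2710, 2368 and 3325, and 0 in the other 3. The replicate numbers share no stated source: of 30 same-number pairs 8 had a correlation of deviations over 0.1 (median 0.0076), and in 9 of the 30 pairs the library correlated best with its own number, so the block is no paired analysis.

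Scaling by total counts moved the median of all genes from 0.02 to -0.11 in Met2 against Primary2, from 0.03 to -0.11 in Met2 against Met1 and from 0.01 to -0.11 in Met3 against Met1. Over all genes, calls fell from 1768 to 215 (only the groups compared) and 112 (covariate) and rose to 2765 (DESeq2) in Met2 against Primary2. They fell from 2850 to 1540 (covariate) in Met3 against Primary3, and from 2428 to 14 (only the groups compared) and 20 (covariate) in Met2 against Met1. In Met3 against Met2, 41 became 4 with total counts, 85 with no filter, 570 with DESeq2 and 0 with the block, the covariate or only the groups compared. DESeq2 called 198 genes in the difference between rounds and 30 in Primary3 against Primary2. Without 1 library, all-gene calls ran from 715 to 2150 in Met2 against Primary2, 1372 to 3668 in Met3 against Primary3, 573 to 2527 in Met2 against Met1, 1988 to 4449 in Met3 against Met1 and 0 to 203 in Met3 against Met2. With 3 libraries a group, the median interval of a member's log2 change spanned 0.33 on either side in metastasis against primary and 0.46 in Met2 against Primary2, so smaller changes were not resolved.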
